A study of Homo sapiens with 6 samples.

Results

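The ISG15 conjugation machinery was followed through 6 genes, taken by their symbols from a deposited table of read counts for 20729 genes: ISG15, UBA7, UBE2L6, HERC5, HERC6 and USP18. All 6 had a row. RNA-seq libraries were made from SW620 (per the labels), a line established from a human colorectal tumour, 3 after an siRNA against OSBPL3 (siOSBPL3) and 3 after a control siRNA (siNC). OSBPL3 encodes an oxysterol-binding-protein-related lipid transfer protein, and the series title links it to Hippo-YAP signalling and to the response to MEK inhibitors. Neither the sequence of the siRNAs nor their dose and duration are given in the sources used here, and both groups are labelled as transfected cells of the same line. Whether the libraries of a group are separate cultures is not stated, so the p-values below reflect only library-to-library variation, part or all of which could be technical.

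ISG15 is a small protein made of a pair of ubiquitin-like domains, and its transcription is strongly induced by type I and type III interferon. Like ubiquitin it is joined to lysines of other proteins in steps: UBA7 is the activating enzyme (E1), UBE2L6 the conjugating enzyme (E2) and HERC5 the main ligase (E3) in human cells. HERC6 is the closest relative of HERC5 and is the main ISG15 ligase in mice, which lack HERC5. USP18 is the protease that removes ISG15 from its targets. It also binds the interferon receptor subunit IFNAR2 and dampens signalling there, and free ISG15 is known to stabilise USP18 in human cells.

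Depth was similar in all libraries, at 34569895 to 39701340 counts in siOSBPL3 and 30040020 to 33667128 in siNC. The targeted transcript was lower in every siOSBPL3 library, at 40.2, 12.2 and 15.1 CPM (read counts scaled to library size with TMM factors) against 179, 174 and 175 CPM in siNC (log2 fold change -2.97 ± 0.48 SE, adjusted p = 0.0016, edgeR quasi-likelihood test). It was -3.68 without siOSBPL3 replicate 1 and -2.26 after correction for base composition and length of transcripts, and over all alternatives its adjusted p was at most 0.024. The groups differed in most of the transcriptome: 80.2% of the 15506 tested genes were called at an adjusted p of 0.05, 40.4% as higher and 39.8% as lower in siOSBPL3, and the median log2 fold change of all of them was -0.00089. Of 12 markers of colorectal epithelium, KRT20, CDX1 and GPA33 stayed under 1 CPM in every library, while the epithelial gene EPCAM stood at 620 ± 98.7 CPM in siOSBPL3 and 516 ± 1.88 CPM in siNC (SD, n = 3 each). The intestinal factor gene CDX2 was at 63.5 ± 9.66 CPM in siOSBPL3 and 1.15 ± 0.396 CPM in siNC, and the brush border gene VIL1 at 62.6 ± 2.38 CPM and 482 ± 3.88 CPM in the same order (n = 3 each). Means in that order were 2383 and 2997 CPM for KRT8, 1131 and 2184 for KRT18, and 844 and 719 for KRT19. For CDH1 they were 207 and 229 CPM, for CDH17 41.3 and 12.2, and for LGALS4 9.08 and 0.404. Of the 10 markers tested, 5 were called higher, 3 lower and 2 were not past the test. LGALS4 passed the filter on low counts through siOSBPL3 alone. After the correction for base composition and length 3 were higher and 4 lower. LUM, a fibroblast gene, had 0 counts in every siOSBPL3 library and 60.3 ± 2.62 CPM in siNC. The 5 fibroblast markers with a row summed to 3.19 to 5.95 CPM in siOSBPL3 and 69.9 to 74.4 CPM in siNC, most of it LUM. COL1A1 was at 4.48 ± 1.47 CPM in siOSBPL3 and 10.7 ± 0.979 CPM in siNC, while COL3A1 and DCN stayed under 1 CPM in every library. The 2 endothelial markers with a row summed to 0.219 to 0.803 CPM in siOSBPL3 and 1.39 to 2.25 CPM in siNC. Whether both groups hold the same cells was not settled from these values, so each difference below is one between the libraries labelled siOSBPL3 and siNC, and the part of the marker differences in it was not tested.

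Promoter sequence is shown first for 3 members, because the binding element of the interferon-activated factor ISGF3, the ISRE, is the best known route to these genes. The windows run from 250 bases before to 50 bases after the annotated start (RefSeq, GRCh38.p14, written 5′ to 3′ on the strand of the gene), and capitals mark each match to an ISRE core, GAAANNGAAA on either strand. ISG15 and HERC5 carry matches, and HERC6, the neighbour of HERC5, is given as the member of the same family with none in its window. The ISG15 window is chr1:1013247-1013546 (plus strand), the HERC5 window chr4:88456869-88457168 (plus strand) and the HERC6 window chr4:88378602-88378901 (plus strand).
ISG15: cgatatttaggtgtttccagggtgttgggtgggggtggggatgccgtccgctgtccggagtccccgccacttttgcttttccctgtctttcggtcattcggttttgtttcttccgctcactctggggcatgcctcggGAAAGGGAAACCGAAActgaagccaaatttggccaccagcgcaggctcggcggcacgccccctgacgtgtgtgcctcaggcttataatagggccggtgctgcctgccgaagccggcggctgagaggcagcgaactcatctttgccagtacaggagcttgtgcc
HERC5: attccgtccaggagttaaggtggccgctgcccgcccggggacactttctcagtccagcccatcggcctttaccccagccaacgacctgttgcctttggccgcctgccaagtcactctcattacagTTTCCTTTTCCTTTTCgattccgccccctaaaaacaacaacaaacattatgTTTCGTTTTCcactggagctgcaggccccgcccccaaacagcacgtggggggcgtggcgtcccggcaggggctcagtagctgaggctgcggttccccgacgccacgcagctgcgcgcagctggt
HERC6: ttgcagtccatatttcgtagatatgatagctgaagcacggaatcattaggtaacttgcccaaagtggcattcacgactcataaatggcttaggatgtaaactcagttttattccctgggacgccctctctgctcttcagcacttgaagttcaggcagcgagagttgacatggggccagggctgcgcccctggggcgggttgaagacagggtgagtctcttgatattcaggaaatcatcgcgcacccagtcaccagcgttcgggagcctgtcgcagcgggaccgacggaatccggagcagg

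In ISG15 a pair of overlapping matches, GAAAGGGAAA and GAAACCGAAA, began at bases -113 and -107 from the start. HERC5 held 3 matches, all on the opposite strand, with their leftmost bases at -125, -119 and -74, and the first pair overlapped. Neither of the 2 windows listed for UBE2L6 and not the HERC6 window held one, which says only that these letters are not in those windows. UBA7 and USP18 are named only. An ISRE core was found in 1255 of all 35116 promoter windows (3.57%). Among tested genes with a window, 226 of the 477 with an ISRE core were higher in siOSBPL3 (47.4%) and 169 lower (35.4%), against 4668 higher (40.4%) and 4644 lower (40.2%) of the 11566 without one. These shares describe the windows and were not tested.

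All 6 transcripts of the machinery were higher in siOSBPL3, by 9.69-fold for UBE2L6 up to 761-fold for HERC5. The highest siNC library lay below the lowest siOSBPL3 library for each of them, a pattern that 41.5% of all tested genes showed, with the opposite pattern in another 41.5%. Each log2 fold change was above 3, which 7.56% of tested genes reached with a call. HERC5 and UBA7 passed the filter on low counts through the siOSBPL3 libraries alone. Over its level of 0.293 CPM were 0 of 3 siNC libraries for HERC5 and 2 of 3 for UBA7, where the filter asks for 3. Calls of both genes as higher were therefore built into their selection. The other 4 passed in both groups. In bulk RNA a higher level in each cell and a larger share of cells with the transcript cannot be told apart.

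**Figure D1:**
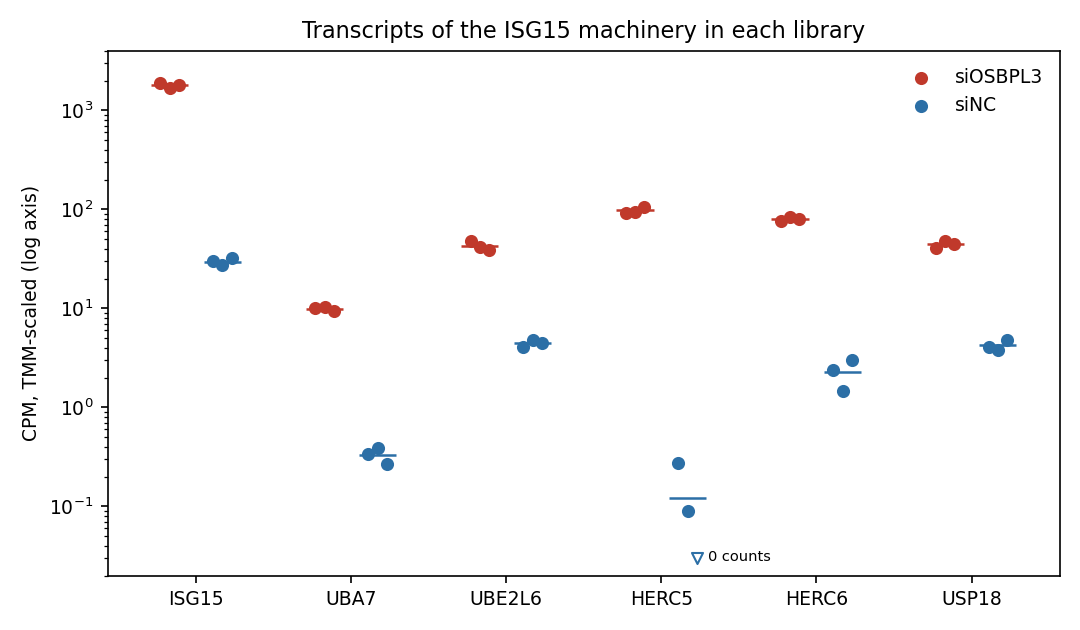
Level of each transcript of the ISG15 machinery in every library, in TMM-scaled CPM on a log axis. Points are libraries (3 siOSBPL3 to the left of 3 siNC for each gene), short lines are group means, and the open triangle marks the siNC library with 0 HERC5 counts, placed at an arbitrary height. For all 6 genes the siOSBPL3 libraries lie above the siNC libraries, with ISG15 at 1692 to 1890 CPM.

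ISG15 itself (chromosome 1, 1013497 to 1014540, GRCh38.p14, as for all positions here) had 68239, 61896 and 71506 counts in the siOSBPL3 libraries and 980, 901 and 953 in the siNC libraries. On the scaled level this was 1890, 1692 and 1808 CPM in siOSBPL3 against 29.8, 27.1 and 32.1 CPM in siNC. The libraries within each group lay close together and the groups did not overlap. The log2 fold change was 5.92 ± 0.10 (SE; adjusted p = 1.6e-12, edgeR quasi-likelihood test), which placed ISG15 at rank 348 of the 15506 genes by fold change. Its share of all counts was 0.197%, 0.170% and 0.180% in siOSBPL3, about 1 read in 507 to 589, and 0.00293%, 0.00268% and 0.00317% in siNC. ISG15 has a GC-rich transcript (63.4%), and after the correction for base composition and length (called the GC and length correction below) its log2 fold change was 4.52.

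UBA7, the E1 (chromosome 3, 49805209 to 49813953), was the scarcest of the 6 in siOSBPL3, and only HERC5 was scarcer in siNC. Its counts were 363, 376 and 372 in siOSBPL3 and 11, 13 and 8 in siNC, or 10.1, 10.3 and 9.40 CPM in siOSBPL3 against 0.335, 0.392 and 0.270 CPM in siNC. The siOSBPL3 libraries differed from each other by at most 1.09-fold. UBA7 rose by 4.88 ± 0.24 on the log2 scale (adjusted p = 2.5e-09, edgeR), and by 4.23 with the GC and length correction. It passed the filter on low counts through siOSBPL3 alone, so its call as higher was built into its selection. From the 32 siNC counts the ratio of summed counts was 29.6, with a 95% counting interval from 20.8 to 43.5 (exact binomial, counting error only).

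UBE2L6, the E2 (chromosome 11, 57551662 to 57567935), stood at 48.4, 41.7 and 38.8 CPM in siOSBPL3 and at 4.05, 4.76 and 4.48 CPM in siNC. Its groups did not overlap, and it had the smallest rise of the 6, 3.28 ± 0.13 on the log2 scale (adjusted p = 4.0e-10, edgeR). Under the GC and length correction it rose by 2.44.

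The ligase genes HERC6 and HERC5 lie side by side on chromosome 4 (88378852 to 88443097 and 88457119 to 88506163), 14.0 kb apart. HERC5 had 3356, 3475 and 4207 counts in siOSBPL3 and 9, 3 and 0 in siNC, which is 92.9 to 106 CPM in siOSBPL3 against 0.274, 0.0904 and 0 CPM in siNC. In siNC it was thus at the edge of detection, and 1 of the libraries held no read of it. HERC5 rose by 9.57 ± 0.27 on the log2 scale (adjusted p = 3.1e-11, edgeR), rank 82 of all genes tested, and 10.90 without siNC replicate 1. The ratio of summed counts was 784, with a counting interval from 449 to 1518.

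HERC6 stood at 76.3, 84.1 and 80.2 CPM in siOSBPL3 and at 2.37, 1.48 and 3.00 CPM in siNC, a rise of 5.14 ± 0.18 (adjusted p = 1.6e-10, edgeR). Its siNC libraries spread by 2.03-fold between the lowest and the highest, far less than the gap to siOSBPL3. A long noncoding RNA locus, LOC102723458 (88411483 to 88467706), overlaps both ligase genes and had 154 counts over siOSBPL3 and 2 over siNC. The strand setting of the counting is not given, so reads of this locus and of the ligase genes cannot be told apart where they overlap.

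USP18, the ISG15 protease (chromosome 22, 18150170 to 18177397), stood at 41.0, 47.4 and 45.1 CPM in siOSBPL3 and at 4.11, 3.80 and 4.82 CPM in siNC. It rose by 3.39 ± 0.13 (adjusted p = 2.5e-10, edgeR), close to UBE2L6 and below ISG15, HERC5, HERC6 and UBA7. USP18 has a near-identical copy, USP41: 312 of the 2030 stretches of 100 bases in its longest transcript (15.4%) occur in GENCODE 29 transcripts of USP41, so its counts carry some uncertainty. No such stretch was shared with another gene for the other 5 members.

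**Figure D2:**
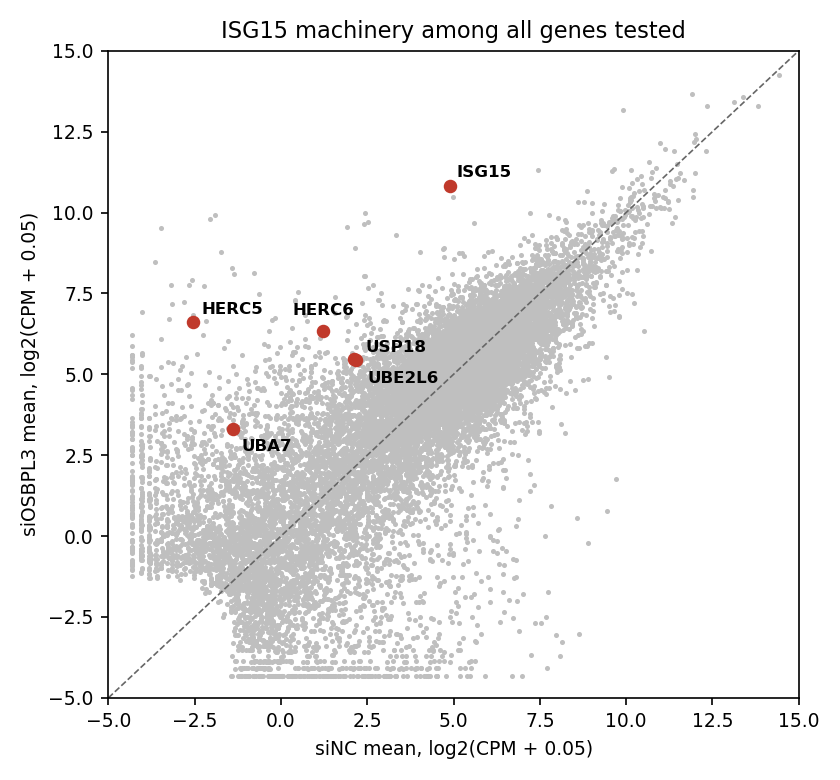
Mean level in siOSBPL3 (vertical) against siNC (horizontal) for all 15506 genes tested, as log2 of CPM plus 0.05. Each grey point is a gene, the dashed line marks equal levels, and the 6 red points of the ISG15 machinery all lie above it, with HERC5 farthest from it and ISG15 the highest.

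The order of abundance within the machinery changed between the groups. Per kilobase of the longest annotated transcript, ISG15 reached 2283 ± 126 CPM per kb in siOSBPL3 and 37.7 ± 3.17 CPM per kb in siNC (SD, n = 3 each). In siOSBPL3 it was followed by HERC5 (27.9 ± 2.06 CPM per kb) and UBE2L6 (27.3 ± 3.14), which were within their spread of each other, then by HERC6 (21.2 ± 1.03) and USP18 (20.9 ± 1.52), likewise within their spread, and by UBA7 (3.00 ± 0.138). In siNC the order after ISG15 was UBE2L6 (2.82 ± 0.228 CPM per kb), USP18 (1.99 ± 0.247), HERC6 (0.604 ± 0.203), UBA7 (0.101 ± 0.0185) and HERC5 (0.0346 ± 0.0397). HERC5 therefore stood last in siNC and shared the second place in siOSBPL3. ISG15 made up 95.5% to 96.0% of the summed level per kb of the 6 transcripts in siOSBPL3 libraries and 86.6% to 87.7% in siNC libraries. Which isoforms were present was not measured.

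Ratios within a library, which do not depend on the scaling between libraries, were set side by side for 6 pairs of transcripts. The modifier outgrew its protease: there were 46.1, 35.7 and 40.1 ISG15 counts for each USP18 count in siOSBPL3, and 7.24, 7.13 and 6.64 in siNC. The balance of the ligases turned over, with 1.22, 1.13 and 1.33 HERC5 counts for each HERC6 count in siOSBPL3 and 0.121, 0.0707 and 0.00559 in siNC, where the last rests on 0 HERC5 counts and a prior of 0.5. The number of UBE2L6 counts for each UBA7 count was lower in siOSBPL3, at 4.81, 4.05 and 4.12, than in siNC, at 11.6, 11.7 and 15.7.

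The machinery was also compared with its counterparts for ubiquitin. UBE2L6 had 0.247, 0.192 and 0.163 counts for each count of its paralogue UBE2L3, a ubiquitin E2, in siOSBPL3, and 0.0276, 0.0327 and 0.0304 in siNC. UBA7 had 0.0401, 0.0316 and 0.0342 counts for each count of UBA1, the main ubiquitin E1, in siOSBPL3, and 0.000731, 0.000869 and 0.000586 in siNC. In log2 units the differences, siOSBPL3 minus siNC, were 2.53 for ISG15/USP18, 5.07 for HERC5/HERC6, -1.58 for UBE2L6/UBA7, 2.71 for UBE2L6/UBE2L3, 5.61 for UBA7/UBA1 and 1.07 for ISG15/UBA7. None of the 6 ratios overlapped between the groups, and each gave p = 0.10 in a two-sided exact permutation test (0.10 after adjustment over the 6), the smallest value that 3 against 3 libraries allow. Among single genes tested, 41.5% lay higher without overlap and 41.5% lower. How often ratios of other gene pairs overlap was not measured, so the lack of overlap does not set these 6 ratios apart. With the GC and length correction ISG15/USP18 differed by 1.53 and ISG15/UBA7 by 0.48, and without siNC replicate 3 HERC5/HERC6 differed by 3.72.

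**Figure D3:**
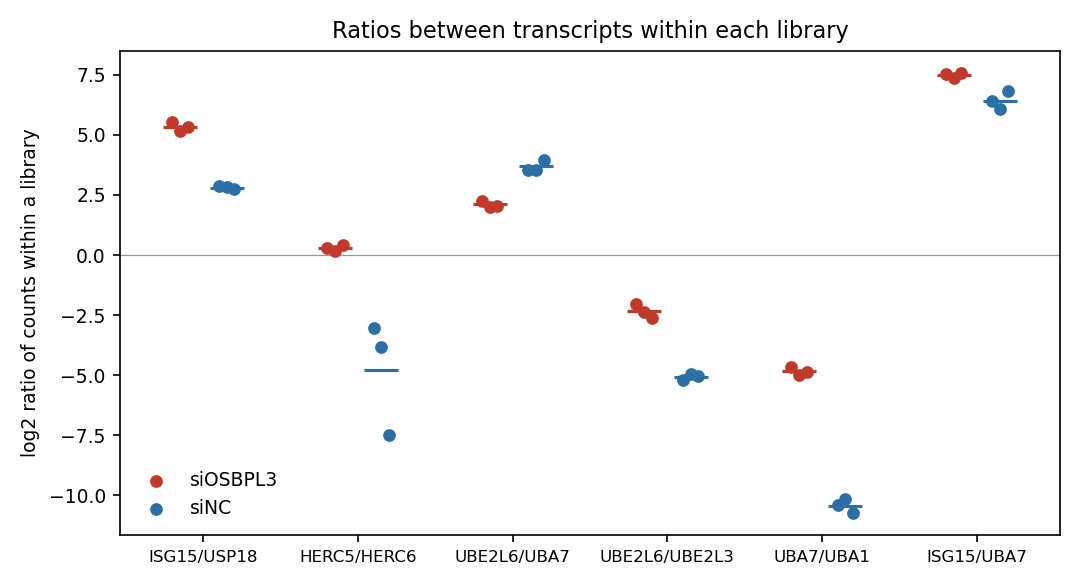
Log2 ratios of counts between pairs of transcripts within each library, with siOSBPL3 to the left of siNC in each pair. Points are libraries and short lines are means of 3. For UBE2L6/UBA7 the siOSBPL3 libraries lie below the siNC libraries, and for the other 5 ratios they lie above.

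The 3 siOSBPL3 libraries differed in how much OSBPL3 transcript was left, at 22.8%, 6.93% and 8.61% of the siNC mean, whereas the machinery varied little among them. The highest over the lowest siOSBPL3 library was 1.12-fold for ISG15, 1.09-fold for UBA7, 1.25-fold for UBE2L6, 1.14-fold for HERC5, 1.10-fold for HERC6 and 1.16-fold for USP18. Replicate 1, with the most OSBPL3 left, was highest for ISG15 and UBE2L6 and lowest for HERC5, HERC6 and USP18. The coefficients of variation of the 6 genes in siOSBPL3 ran from 4.59% to 11.5%, beside a median of 10.9% over the 11206 genes that averaged 5 CPM or more. In siNC that median was 4.01%, and the 6 genes ran from 8.09% for UBE2L6 to 115% for HERC5.

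Enzymes outside this set that have been reported to add or remove ISG15 moved in both directions. Of 7 such genes 3 rose, 3 fell and USP13 did not pass the test (log2 fold change -0.11 ± 0.09, adjusted p = 0.27, edgeR), with a median of -0.11. That is near the shares over all genes tested, 40.4% higher and 39.8% lower. TRIM25, a ligase of ISG15 and ubiquitin and itself a known interferon target, rose by 0.62 ± 0.08, USP5 by 0.84 ± 0.11 and USP14 by 0.65 ± 0.10. ARIH1, a ligase that works with UBE2L3 and has been reported to use UBE2L6, was lower (-0.95 ± 0.08), as were the proteases USP21 (-0.62 ± 0.13) and USP16 (-0.35 ± 0.12). The GC and length correction turned ARIH1 to 0.46, USP16 to 0.44 and USP13 to 0.55. It took USP5 to 0.21 (adjusted p = 0.074, edgeR), USP14 to 1.41 and USP21 to -0.98, and 5 of the 7 then rose and 1 fell.

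The other 4 HERC genes were called lower in siOSBPL3, while HERC5 and HERC6 were higher. Over all genes tested 39.8% were lower and 40.4% higher. Under the GC and length correction 3 of the 4 were called lower. HERC3, a small HERC gene, stood at 3.77 ± 0.991 CPM in siOSBPL3 and 14.0 ± 0.391 CPM in siNC (SD, n = 3 each; log2 fold change -1.88 ± 0.19, adjusted p = 1.5e-06, edgeR). HERC1 (-1.64 ± 0.10) and HERC4 (-1.36 ± 0.08) also fell, to a smaller extent under the GC and length correction (-0.84 for HERC1 and -0.51 for HERC4). HERC2, a giant ligase of DNA repair, had the smallest difference of the 4 (-0.26 ± 0.09, adjusted p = 0.023, edgeR), and it was not called without siNC replicate 2 (adjusted p = 0.057) or 3 (0.095), or siOSBPL3 replicate 3 (0.066), nor under the correction (log2 fold change 0.17). Over all alternatives the adjusted p of HERC2 ran from 0.0035 to 0.095.

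Among 9 activating enzymes of ubiquitin and other ubiquitin-like proteins 1 rose, 5 fell and 3 did not pass, with a median of -0.45. Over all genes tested 40.4% were higher and 39.8% lower. Under the GC and length correction 3 of the 9 rose, and without siOSBPL3 replicate 1, 2 rose. UBA1 stood at 284 ± 38.4 CPM in siOSBPL3 and 478 ± 10.5 CPM in siNC (-0.75 ± 0.10; corrected, -1.28), and UBA6, the second ubiquitin E1, was also lower (-1.67 ± 0.10; -0.44 when corrected for GC and length). The NEDD8 E1 subunits NAE1 (-1.21 ± 0.09) and UBA3 (-1.09 ± 0.09; corrected, -0.72) fell. SAE1, a subunit of the SUMO E1, rose by 0.49 ± 0.09 (corrected, 0.19) and its partner UBA2 was lower (-0.45 ± 0.09, but -0.12 and not called with the correction). UBE2L3, the ubiquitin-side paralogue of UBE2L6, rose by 0.56 ± 0.09, and by 0.24 with the correction.

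**Figure D4:**
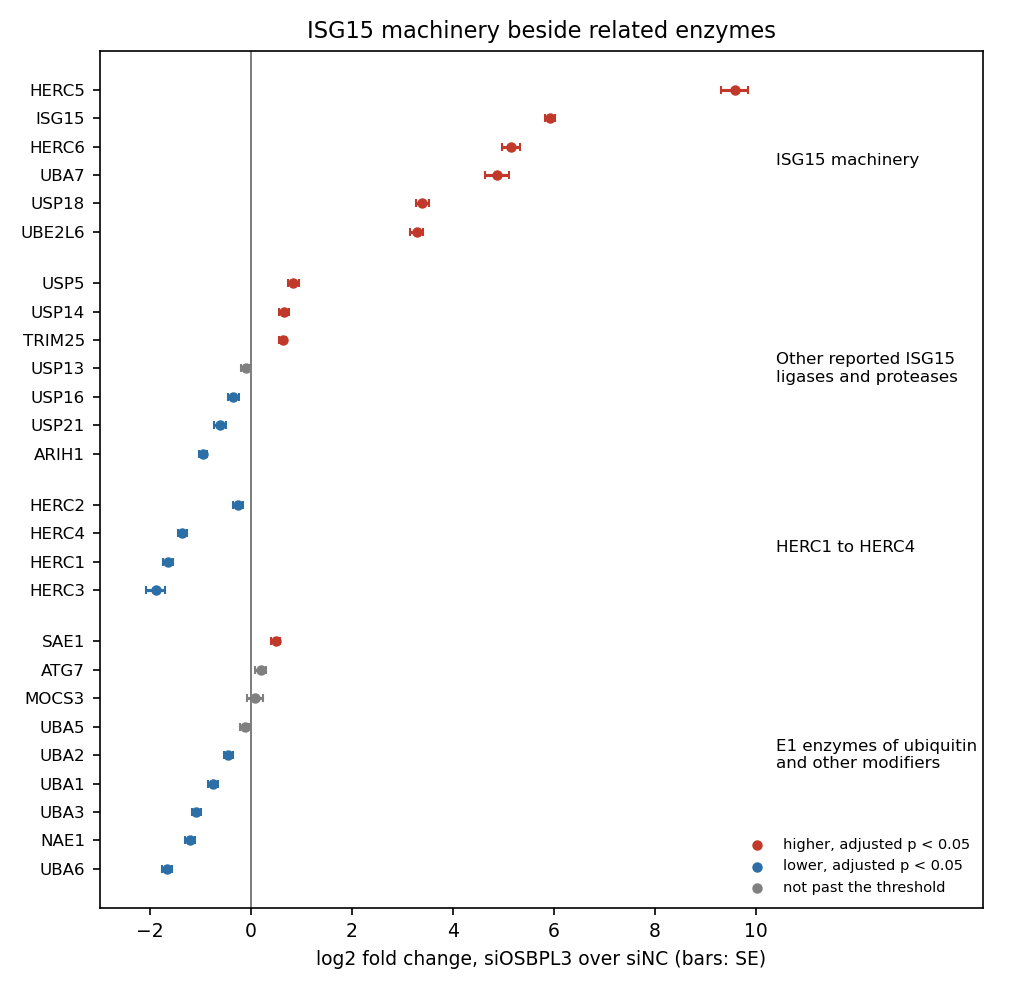
Log2 fold change of siOSBPL3 over siNC (horizontal, bars are SE) for the ISG15 machinery and, below it, for other enzymes reported to handle ISG15, the other HERC genes and activating enzymes of other modifiers. Red and blue points passed an adjusted p of 0.05 as higher and lower, and grey points did not. The 6 genes of the machinery lie between 3.28 and 9.57, and the related enzymes between -1.88 and 0.84.

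Of 17 genes of ubiquitin and ubiquitin-like modifiers, 7 were higher, 6 lower and 4 not past the test, with a median of -0.03. This is close to the shares over all genes tested, 40.4% higher and 39.8% lower. URM1 (0.68 ± 0.08; corrected, 0.18) and UBL5 (0.83 ± 0.10; corrected, 0.50) rose, and GABARAPL2 (-0.78 ± 0.09) and ATG12 (-0.82 ± 0.10, but -0.09 with the GC and length correction) were lower. UBD, the gene of the interferon-inducible modifier FAT10 and chosen here after its values were seen, rose by 2.74 ± 0.33, the largest rise of the 17. That is below each of the 6 ISG15 machinery genes, but under the GC and length correction UBD (2.65) lay above UBE2L6 (2.44).

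Partners that USP18 and ISG15 bind changed in different directions. STAT2, which brings USP18 to the interferon receptor, was lower (40.8 ± 3.72 CPM in siOSBPL3 and 67.5 ± 3.13 CPM in siNC, n = 3 each; -0.73 ± 0.09), and IFNAR2 did not pass the test (33.8 ± 4.81 CPM and 35.3 ± 2.34 CPM in the same order; -0.06 ± 0.11, adjusted p = 0.63, edgeR). SKP2, part of the ubiquitin ligase that turns USP18 over, fell (-1.18 ± 0.08, and -0.72 with the GC and length correction). Of the integrin chains that bind secreted ISG15, ITGB2 rose by 5.32 ± 0.47, with 724 counts over siOSBPL3 and 15 over siNC, and ITGAL stayed under 1 CPM in every library. Without siNC replicate 3, which held 11 of those 15 counts, ITGB2 rose by 6.65. ITGB2 passed the filter on low counts through siOSBPL3 alone, so its call as higher was built into its selection.

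Of 20 genes whose proteins have been reported as ISG15 targets, 11 rose, 4 fell and 5 did not pass, with a median of 0.40. For comparison, 40.4% of all genes tested were higher and 39.8% lower. The largest rises belonged to targets that are themselves interferon-induced: IFIT1 (7.58 ± 0.17), the DNA sensor CGAS (7.53 ± 0.32), DDX58, the RNA sensor RIG-I (3.94 ± 0.14), and MX1 (3.63 ± 0.12). Not every interferon-induced target rose as far: EIF2AK2 rose by 0.26 ± 0.08, and by 1.35 with the GC and length correction. CGAS had 10 counts over siNC and passed the filter on low counts through siOSBPL3 alone, and without siNC replicate 3 it rose by 8.28. JAK1 (-2.08 ± 0.11), PLCG1 (-1.05 ± 0.12), TSG101 (-0.44 ± 0.08) and PPM1B (-0.36 ± 0.10, but 0.15 and not called with the GC and length correction) were lower.

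Upstream, the genes of the interferon regulatory factors IRF7 (2.79 ± 0.16), IRF9 (1.72 ± 0.11), IRF1 (1.17 ± 0.10) and IRF3 (0.99 ± 0.08) were higher, and IRF2 (-0.33 ± 0.10) was lower. With the GC and length correction IRF7, IRF9 and IRF3 became 1.43, 1.05 and 0.24. Among interferon and receptor genes, 6 of the 9 tested rose and 3 were not past the test, with 0 lower and a median of 0.44. The shares over all genes tested were 40.4% higher and 39.8% lower. The receptor genes IFNGR1 (2.69 ± 0.09) and IFNLR1 (1.82 ± 0.14) were among those higher. The interferon gene IFNL1 had 340, 476 and 599 counts and IFNB1 59, 63 and 67 counts in the siOSBPL3 libraries, and both had 0 in every siNC library, so they too passed the filter through siOSBPL3 alone. Of the leukocyte markers, PTPRC and CD3E stayed under 1 CPM in every library. Of the 5 tested, 3 rose: ITGAM (6.39 ± 0.72, with 227 counts over siOSBPL3 and 2 over siNC), CD14 (3.43 ± 0.40) and CD8A (2.80 ± 0.33). CD68 (-1.70 ± 0.19) and LYZ (-3.39 ± 0.81) fell. ITGAM and CD14 passed the filter on low counts through siOSBPL3 alone and LYZ through siNC alone, so the direction of these calls was built into their selection. The 7 markers with a row summed to 12.7 to 20.1 CPM in siOSBPL3 and 20.4 to 22.9 CPM in siNC, and their part in the results was not tested.

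**Figure D5:**
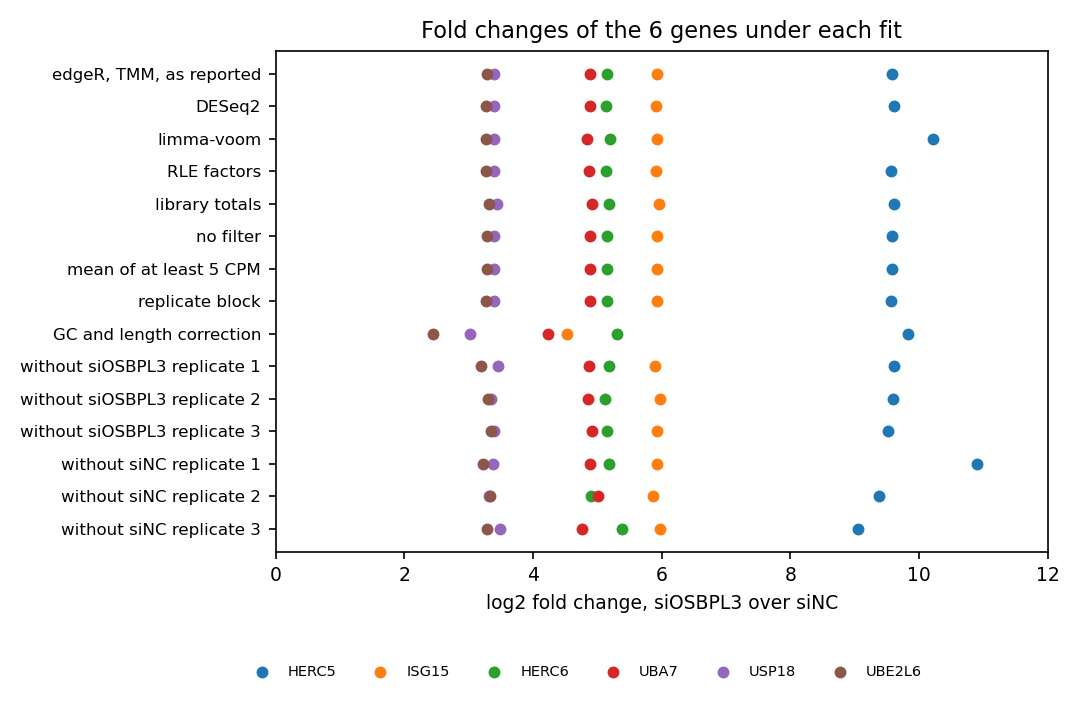
Log2 fold change of each of the 6 genes (horizontal, 1 colour per gene) under the edgeR fit as reported and under 14 other fits, listed from top to bottom. Every gene lies above 2 in every fit, HERC5 moves between 9.05 and 10.90, and under the GC and length correction HERC6 lies above ISG15.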

How the data were processed

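The table that the authors deposited holds unnormalized counts, whole numbers for each gene symbol and library; columns were matched by library name and groups taken from titles. Per the submitters' processing notes HISAT2 2.2.1, HTSeq 0.13.5 and GRCh38 were used; annotation and strand setting are not given in the sources used here. The test was edgeR 4.0.16 under R 4.3.3 (filterByExpr with a minimum count of 10 and total of 15, TMM, robust quasi-likelihood, group only, two-sided), and the 15506 p-values were adjusted by Benjamini-Hochberg and called below 0.05. SE is log2 fold change over the square root of F. The test was checked on simulated counts in which 200 genes were changed. Far more genes differ in these data, so that check does not cover a shift of this breadth. Ratios used a prior of 0.5 counts. Replicates differed by more than sampling noise, so all 6 libraries were kept. Chi-square over its degrees of freedom was 18.4 to 48.9 between siOSBPL3 libraries and 2.94 to 3.52 between siNC libraries. Intervals cover counting error only.

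Alternatives were DESeq2 1.42.0, limma-voom 3.58.1, library totals or RLE factors for scaling, the filter dropped or raised to an average of 5 CPM, calls below 0.01, the replicate block, each library left out, and a smooth correction for GC content and length of the longest GENCODE 29 transcript (mgcv 1.9.3, 14435 genes). Positions are from RefSeq; 19629 symbols matched. Named genes are the members, up to 4 per list by adjusted p, genes completing small counts, the nearest genes on each side, and the 5 profiles nearest to ISG15. Genes named outside this rule include EIF2AK2, UBD and the remaining markers of colorectal epithelium. Members and lists were chosen with earlier results of these data known. A gene of the lists is not reported here.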

Additional observations from a re-analysis of the deposited data

How the results depend on the processing

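All 6 members were called as higher under each of the 14 other fits and at a threshold of 0.01, and the 6 ratios kept their direction under each alternative run for them. Under the GC and length correction ISG15 was 4.52, UBA7 4.23, UBE2L6 2.44 and USP18 3.01, for each of these 4 the largest move among the alternatives run, while HERC5 was 9.83 and HERC6 5.31. The cause was not tested. Without one library at a time, ISG15 ran from 5.86 to 5.98, UBA7 from 4.75 to 5.01, UBE2L6 from 3.19 to 3.35, HERC5 from 9.05 to 10.90, HERC6 from 4.90 to 5.38 and USP18 from 3.32 to 3.49. Several compared genes that other passages name changed sign under the GC and length correction. They were ARIH1 (0.46), HERC2 (0.17), IFNAR2 (0.11), PPM1B (0.15), TIMM10 (-0.63), TRAIP (-0.42), USP13 (0.55) and USP16 (0.44). Of these, ARIH1, TIMM10, TRAIP, USP13 and USP16 were then called in the new direction. The list is not complete, as further genes of the compared lists also changed sign. Examples, chosen after their values were seen, are MAPK3 (0.61 to -0.33), UBB (0.33 to -0.21), USP15 (-0.80 to 0.62) and UBE2K (-0.31 to 0.55). Without single libraries IFNAR2 ran from -0.15 to 0.052. With that correction 15 rather than 9 ubiquitin-specific proteases rose, and 6 rather than 10 UBE2 genes fell. With the replicate number as a block the log2 fold changes were 5.92 for ISG15, 4.88 for UBA7, 3.27 for UBE2L6, 9.57 for HERC5, 5.15 for HERC6 and 3.39 for USP18, and 12277 genes were called. Same-numbered libraries did not deviate together (correlations of -0.03, 0.01 and -0.03), and not every library correlated best with its own number. With 3 libraries per group these values cannot decide whether libraries were made in pairs, and the labels do not state it. The block therefore stands only as an alternative fit. In siNC the levels of HERC5 and UBA7 rest on 13 counts or fewer in each library. INKA1 was called without siNC replicate 3 (2.55), without siOSBPL3 replicate 1 (1.72) and under the block (1.55).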

Other observations

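Neighbours of the members on the chromosome did not all share their rise. On chromosome 1, HES4, a transcriptional repressor gene 13.4 kb to the left of ISG15, stood at 139 CPM in siOSBPL3 and 9.48 CPM in siNC (log2 fold change 3.88 ± 0.11, and 1.89 with the GC and length correction). AGRN, 5.58 kb to its right and the gene of the matrix protein agrin, rose by 1.93 ± 0.11 (1.08 with the correction). PPM1K, 94.3 kb to the left of HERC6, rose by 2.15 ± 0.16 (2.90 with the correction). Next to USP18, TUBA8 rose by 1.77 ± 0.27 (1.07 with the correction) and TMEM191B, 350 kb away, by 2.83 ± 0.56 from 13 siNC counts (1.48 with the correction). TMEM191B passed the filter on low counts through siOSBPL3 alone, so its call as higher was built into its selection. The genes beside UBA7 and UBE2L6 with enough counts did not pass the test: INKA1 (1.38 ± 0.73, adjusted p = 0.10, edgeR), TRAIP (0.11 ± 0.11, adjusted p = 0.36) and TIMM10 (0.05 ± 0.08, adjusted p = 0.57). With the GC and length correction TRAIP (-0.42, adjusted p = 0.0036, edgeR) and TIMM10 (-0.63, adjusted p = 9.9e-06) were called as lower. INKA1 lies 0.179 kb from UBA7 and had 73 counts over siOSBPL3 and 23 over siNC.

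Over the 6 libraries, the genes whose profile of log2 level (prior of 2 counts) relative to the siNC mean came nearest to ISG15, among 11200 genes averaging 5 CPM or more, were CRABP2 (root mean square difference 0.0799), SRMS (0.128), BTC (0.139), PLCB2 (0.175) and NMI (0.178). CRABP2, a retinoic acid binding protein, stood at 626 CPM in siOSBPL3 and 9.92 CPM in siNC, and NMI, an interferon-induced gene, at 57.5 CPM and 0.929 CPM in the same order. Of the other members HERC6 was nearest to ISG15 (0.592), and UBE2L6 and USP18 were the nearest pair within the machinery (0.214). Because profiles are relative to the siNC mean, these distances mostly restate how close the log2 fold changes are. The 5 nearest genes rose by 5.94 to 6.14, beside 5.92 for ISG15. Joint variation between libraries of a group was not tested. BTC and PLCB2 passed the filter on low counts through siOSBPL3 alone.

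Relatives on the ubiquitin side changed in both directions, beside 40.4% higher and 39.8% lower among all genes tested. Of 43 tested ubiquitin-specific proteases other than USP18, 28 fell and 9 rose (median -0.48), with USP24 (-1.88 ± 0.08), USP54 (-2.55 ± 0.12), USP9X (-1.74 ± 0.09) and USP34 (-1.42 ± 0.08) lower. With the GC and length correction USP24, USP9X and USP34 became -1.03, -0.65 and -0.37, and 20 of the proteases fell and 15 rose. Of 31 tested UBE2 genes other than UBE2L6, 14 rose and 10 fell (median 0.05), among them UBE2S (1.61 ± 0.09; corrected, 1.03), UBE2D4 (2.16 ± 0.13), UBE2Q1 (1.16 ± 0.09) and UBE2M (1.52 ± 0.09, but 0.15 and not called with the correction).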
